A study of Homo sapiens with 2 samples.

Results

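The SLC25 family holds the carrier proteins that move metabolites, nucleotides, ions and cofactors across the inner membrane of mitochondria. Its members were taken as every row of the deposited gene table whose symbol starts with SLC25A, which gave 48 of 20289 genes. Of these, 39 averaged at least 50 counts over the 2 libraries and were compared. RNA was measured in MDA-MB-231, a human cell line derived from triple-negative breast cancer. One library came from cells treated with an siRNA against USP30-AS1, a long non-coding RNA transcribed opposite the mitochondrial deubiquitinase gene USP30, and 1 from cells treated with a negative control siRNA. Nothing else in the labels differs between them. No test was possible without replicates, so each difference below describes these 2 libraries and has no replicate check.

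SLC25 proteins share a fold of 3 repeats, each made of a pair of membrane-spanning helices, and most work as exchangers that trade one substrate for another. They sit between mitochondrial metabolism and the cytosol: ADP enters and ATP leaves through the ADP/ATP carriers, phosphate enters through SLC25A3, and citrate leaves for lipid synthesis through SLC25A1. Members were grouped here by their known substrates into nucleotide, amino acid, carboxylate, ion and cofactor carriers, and the 9 members with another or no assigned substrate were kept apart.

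The knockdown library held 19569214 counts and the control library 23287817. Levels are given in FPKM, which is per transcript length, so that genes can be compared. Differences are given as log2 ratios of scaled counts (in CPM, with 0.5 CPM added), knockdown over control, or as folds with a 95% interval that covers counting error only. The targeted RNA, USP30-AS1, was not analysed here, and how far it was silenced is not shown. Of the line's listed markers, VIM was at 1189.7 FPKM in the knockdown and 839.96 FPKM in the control library. KRT18 was at 515.05 and 332.19 FPKM. The epithelial marker EPCAM was low, with 47 counts in the knockdown and 49 in the control library. The mesenchymal marker SPARC was at 31.7 and 33.33 FPKM. All 3 compared epithelial markers and 2 of 3 mesenchymal markers lay above a log2 ratio of 0. The hormone receptor genes ESR1 and PGR had 13 and 0 counts in the knockdown and 9 and 0 in the control library. Listed markers of leukocytes and red cells had at most 4 counts in either library. The 3 listed endothelial markers summed to 1.23 FPKM in the knockdown and 2.9 FPKM in the control library, with CDH5 at 8 and 91 counts, VWF at 0 and 1, and PECAM1 at 128 and 226. The 4 epithelial markers summed to 1002 FPKM in the knockdown and 609 FPKM in the control library, and the 3 mesenchymal markers to 1363 and 932 FPKM. The part of any of these in the results was not tested.

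The carriers were mostly at similar levels in both libraries. None of the 39 compared members differed by 2-fold or more, where 3.16% of all 11530 compared genes did. At 1.5-fold, with 0.5 CPM added, SLC25A6, SLC25A16 and SLC25A42 were lower in the knockdown library. In all, 1 of 39 members was higher, where 6.1% of all compared genes were, and 3 of 39 (7.69%) lower, where 7.04% were. The shares are near those of all genes. Of the members, 18 lay above 0 and 21 below, with a median log2 ratio of -0.02, while the median over all compared genes was 0.00. Of all compared genes, 50.4% lay below 0, a share that also stands beside the class counts further on. The family as a whole took 0.295% of all counts in the knockdown library (Wilson interval 0.293 to 0.298%) and 0.311% in the control library (0.309 to 0.314%). In scaled counts its sum was 1.02-fold lower (1.01 to 1.03). In these bulk samples fewer cells expressing a gene and less RNA per cell cannot be told apart. Member by member, the counting interval lay wholly above 1 for 12 of 39 carriers, where it did for 33.0% of all compared genes, wholly below 1 for 14, where it did for 31.5%, and held 1 for 13.

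**Figure D1:**
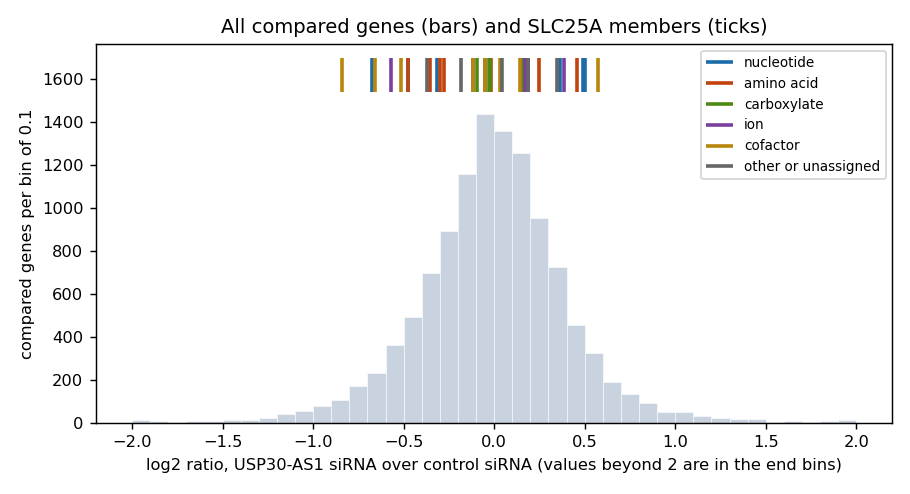
Histogram of log2 ratios, knockdown over control, over the 11530 compared genes (bars, genes per bin of 0.1), with 38 of the 39 compared SLC25A members as coloured ticks by substrate class above; values beyond 2 are in the end bins. The members drawn lie between -0.84 (SLC25A42) and 0.57 (SLC25A51), inside the bulk of the distribution and on both sides of 0.

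Most of the family's RNA came from 3 genes. SLC25A3, SLC25A5 and SLC25A6 together made 66.8% of the family's summed FPKM in the knockdown library and 68.2% in the control library. SLC25A3, the phosphate carrier that supplies ATP synthase, was the most abundant member at 804.5 FPKM in the knockdown and 862.54 FPKM in the control library. SLC25A5, which encodes the ADP/ATP carrier ANT2, followed at 389.8 and 392.91 FPKM. At the other end, the 9 members that were not compared had few or no counts. SLC25A2, SLC25A47, SLC25A48 and SLC25A52 had 0 counts in both libraries. That count allows up to 0.156 CPM in the knockdown and 0.127 CPM in the control library. SLC25A31, the ADP/ATP carrier of the testis, had 0 counts in the knockdown and 1 in the control library, and SLC25A41 had 0 and 2. SLC25A18, SLC25A34 and SLC25A53 had 8, 4 and 23 counts in the knockdown and 6, 11 and 41 in the control library.

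**Figure D2:**
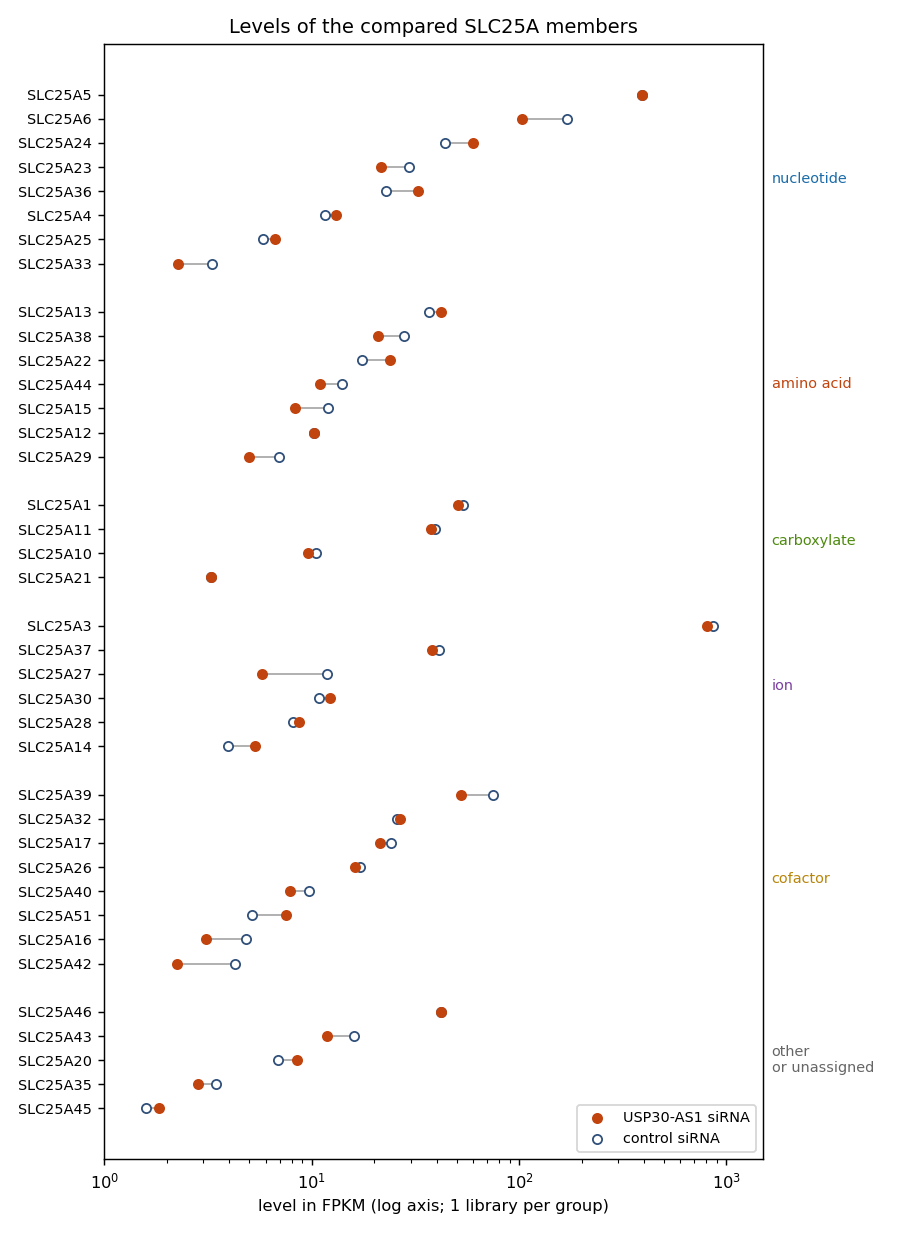
Level of 38 compared members in FPKM (log axis) in the USP30-AS1 siRNA library (filled) and the control library (open), by substrate class. Levels run from 1.58 FPKM (SLC25A45, control) to 862.54 FPKM (SLC25A3, control), and for most members the points of both libraries are close together.

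Among the nucleotide carriers, the ADP/ATP carriers differed from one another. They exchange cytosolic ADP for ATP made in the matrix. SLC25A6 (ANT3; chromosome X, 1386152 to 1392724, minus strand, GRCh38, in the pseudoautosomal region) had 2922 counts in the knockdown and 5754 in the control library, 1.60-fold lower (1.53 to 1.67; log2 ratio -0.68). Only 5.20% of all compared genes lay lower than it. Its more abundant relative SLC25A5 (ANT2; chromosome X, 119468400 to 119471319, plus strand) had 9970 and 11959 counts, 1.03-fold higher (0.999 to 1.05). SLC25A4 (ANT1), the form of heart and skeletal muscle, had 620 and 680 counts, 1.12-fold higher (1.005 to 1.25). ANT3 therefore made up 20.4% of the summed FPKM of the ADP/ATP carriers in the knockdown and 29.6% in the control library, and ANT2 77.1% and 68.4%. SLC25A5 has processed pseudogenes, and how reads shared with them were counted is not stated. SLC25A5, SLC25A21, SLC25A25 and SLC25A30 have annotated antisense genes, and with no strand setting stated the reads of the 2 partners cannot be told apart.

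The promoters of these sister genes are shown because one gene was lower and the other was not. They run from 250 bases before to 50 after the start of transcription, 5′ to 3′, from RefSeq (GRCh38.p14). SLC25A6 is at chrX:1392064-1392363 on the minus strand and SLC25A5 at chrX:119468194-119468493 on the plus strand. Capitals mark letters searched on either strand, with no overlaps: the GC box (GGGCGG), the CCAAT box spelled as named, and the TATA box (TATAAA). The E-box (CACGTG) and part of the motif of NRF1, a regulator of mitochondrial genes (GCATGCG), were searched too and have no match in either window.
SLC25A6: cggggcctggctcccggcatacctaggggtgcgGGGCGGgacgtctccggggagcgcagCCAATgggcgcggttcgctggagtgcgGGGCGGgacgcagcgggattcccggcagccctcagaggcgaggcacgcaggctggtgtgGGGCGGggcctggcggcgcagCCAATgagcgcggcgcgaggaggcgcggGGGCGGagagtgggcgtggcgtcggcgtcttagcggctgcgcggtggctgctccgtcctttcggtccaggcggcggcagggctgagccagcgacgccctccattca
SLC25A5: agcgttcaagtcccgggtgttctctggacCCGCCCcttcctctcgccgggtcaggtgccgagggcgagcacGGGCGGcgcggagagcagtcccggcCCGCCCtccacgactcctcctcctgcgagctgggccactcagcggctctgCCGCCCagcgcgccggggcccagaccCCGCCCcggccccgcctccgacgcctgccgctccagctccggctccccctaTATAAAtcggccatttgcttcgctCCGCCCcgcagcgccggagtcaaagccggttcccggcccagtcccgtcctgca
The SLC25A6 promoter held 4 GC boxes, 2 CCAAT motifs and no TATAAA, and its GC content was 75.7%. The SLC25A5 promoter held 6 GC boxes, 0 CCAAT motifs and 1 TATAAA, with a GC content of 73.7%. Over 42 promoters of 33 compared members, 66.7% held the GC box, 47.6% the CCAAT box, 7.14% the TATA box, 19.0% the E-box and 2.38% the NRF1 part. Over all 34961 promoters in the table the shares were 45.0%, 34.6%, 11.5%, 7.27% and 3.90% in the same order. Those promoters were not limited to genes with at least 50 counts, as the members were, so the shares are of unlike sets. A match describes letters and not binding.

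The calcium-regulated ATP-Mg/phosphate carriers, which set the size of the adenine nucleotide pool in the matrix, went both ways. SLC25A24 had 4074 counts in the knockdown and 3539 in the control library, 1.42-fold higher (1.35 to 1.48). SLC25A25 had 439 and 417 counts, 1.296-fold higher (1.13 to 1.49). SLC25A23 had 1286 and 1977 counts, 1.25-fold lower (1.16 to 1.34). The pyrimidine nucleotide carriers, which bring in precursors for mitochondrial DNA and RNA, also lay on opposite sides of 0. SLC25A36 had 2745 counts in the knockdown and 2405 in the control library, 1.41-fold higher (1.33 to 1.49), and SLC25A33 had 171 and 298, 1.42-fold lower (1.17 to 1.72). As a class, 5 of 8 compared nucleotide carriers lay above 0, with a median of 0.10 that turned to -0.04 when members under 50 counts were let in. Their summed scaled count was 1.01-fold that of the control (0.994 to 1.03).

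Of the amino acid carriers, 5 of 7 compared members lay below 0, where 50.4% of all compared genes did. The median was -0.28, against 0.00 for all compared genes, and -0.15 when members under 50 counts were let in. SLC25A15, which exchanges cytosolic ornithine for citrulline, had 618 counts in the knockdown and 1064 in the control library and was 1.40-fold lower (1.27 to 1.55). SLC25A38, which imports glycine for haem synthesis, had 822 and 1296 counts (1.28-fold lower, 1.17 to 1.40). SLC25A44, linked to branched-chain amino acid uptake, had 743 and 1130 (1.24-fold lower, 1.12 to 1.36). SLC25A29, a carrier of basic amino acids, had 290 and 435 (1.22-fold lower, 1.05 to 1.42). The glutamate carrier SLC25A22 was the member of this class with the highest ratio, with 1000 counts in the knockdown and 894 in the control library (1.38-fold higher, 1.26 to 1.51). Of the aspartate/glutamate carriers of the malate-aspartate shuttle, SLC25A13 (citrin) had 2467 and 2554 counts and was 1.19-fold higher (1.12 to 1.26), while SLC25A12 (aralar) had 572 and 713, with an interval that held 1 (1.01-fold lower, 0.906 to 1.13). Summed over the class the difference was within counting error (1.01-fold lower, 0.976 to 1.04).

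The 4 carboxylate carriers were the class with the narrowest spread of log2 ratios, from -0.09 to 0.16. They are also the class with the fewest compared members, and a range over fewer members tends to be narrower. Their counting intervals all held 1. Over all compared genes the interval lay wholly above 1 for 33.0% and wholly below 1 for 31.5%. SLC25A1, the citrate carrier, had 1538 counts in the knockdown and 1931 in the control library (log2 ratio -0.03; 1.02-fold lower, 0.953 to 1.09). SLC25A11, the oxoglutarate/malate carrier of the malate-aspartate shuttle, had 1045 and 1308 counts (-0.02; 1.017-fold lower, 0.937 to 1.1). The dicarboxylate carrier SLC25A10 had 349 and 459 counts (-0.09), and SLC25A21, which carries oxoadipate, had 136 and 149 (0.16).

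Among the ion carriers, SLC25A3 had 13560 counts in the knockdown and 17316 in the control library, 1.04-fold lower (1.01 to 1.06). The mitoferrins, which import iron for haem and iron-sulphur clusters, differed little. SLC25A37 had 2239 and 2986 counts (1.08-fold lower, 1.02 to 1.15) and SLC25A28 had 217 and 236 (1.13-fold higher, 0.937 to 1.37). Of the carriers related to uncoupling proteins, SLC25A27 (UCP4) had 142 counts in the knockdown and 265 in the control library. It was 1.52-fold lower in counts (1.23 to 1.87; log2 ratio -0.57 with 0.5 CPM added), but 5.77 against 11.86 FPKM gave -1.04. The authors' deposited log2 fold change for SLC25A27 is taken from the same 2 FPKM values, so its -1.04 is not a separate measure. SLC25A14 (UCP5) had 144 and 133 counts, 1.33-fold higher (1.05 to 1.70). SLC25A30 had 656 and 707 counts, 1.14-fold higher (1.02 to 1.27).

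The cofactor carriers held the lowest member of the family and others above 0. SLC25A42, which brings coenzyme A into the matrix (chromosome 19, 19063999 to 19112888, plus strand), had 143 counts in the knockdown and 324 in the control library. It was 1.84-fold lower (1.51 to 2.26; log2 ratio -0.84), the lowest member, with 2.83% of compared genes below it. SLC25A16, which has also been linked to coenzyme A (chromosome 10, 68477999 to 68527474, minus strand), had 203 and 401 counts and was 1.60-fold lower (1.35 to 1.91). SLC25A39, which is required for glutathione import, had 1474 and 2597 counts and was 1.43-fold lower (1.34 to 1.53). SLC25A51, the NAD carrier, had 187 counts in the knockdown and 151 in the control library and was 1.52-fold higher (1.22 to 1.90). Its log2 ratio of 0.57, with 0.5 CPM added, fell just short of the 1.5-fold line. SLC25A52, a closely similar copy of SLC25A51, had 0 counts in both libraries, and reads that match both could have been assigned to either. The folate carrier SLC25A32 had 1418 and 1581 counts (1.104-fold higher, 1.03 to 1.19). SLC25A26, which imports S-adenosylmethionine, had 435 and 554 counts (log2 ratio -0.05), and SLC25A17 of peroxisomes had 805 and 1074 (-0.11). The summed scaled count of the class was 1.12-fold lower (1.08 to 1.16). Without SLC25A39 the sums were 3912 counts in the knockdown and 4817 in the control library, and the fold was 0.9997 (0.958 to 1.04).

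Of the 5 compared members with another or no assigned substrate, 3 lay above 0. Their median was 0.04, and it turned to -0.18 when members under 50 counts were let in and to -0.005 without TMM, the scaling between libraries. The carnitine/acylcarnitine carrier SLC25A20, which lets long-chain fatty acids reach beta-oxidation, had 295 counts in the knockdown and 283 in the control library, 1.28-fold higher (1.09 to 1.52). SLC25A46, an outer membrane member tied to mitochondrial shape, had 2489 and 2973 counts (1.031-fold higher, 0.977 to 1.09). SLC25A43 had 582 and 930 counts, 1.298-fold lower (1.17 to 1.44). SLC25A35 had 119 and 168 counts (-0.18), and SLC25A45 had 68 and 72 (0.19).

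**Figure D3:**
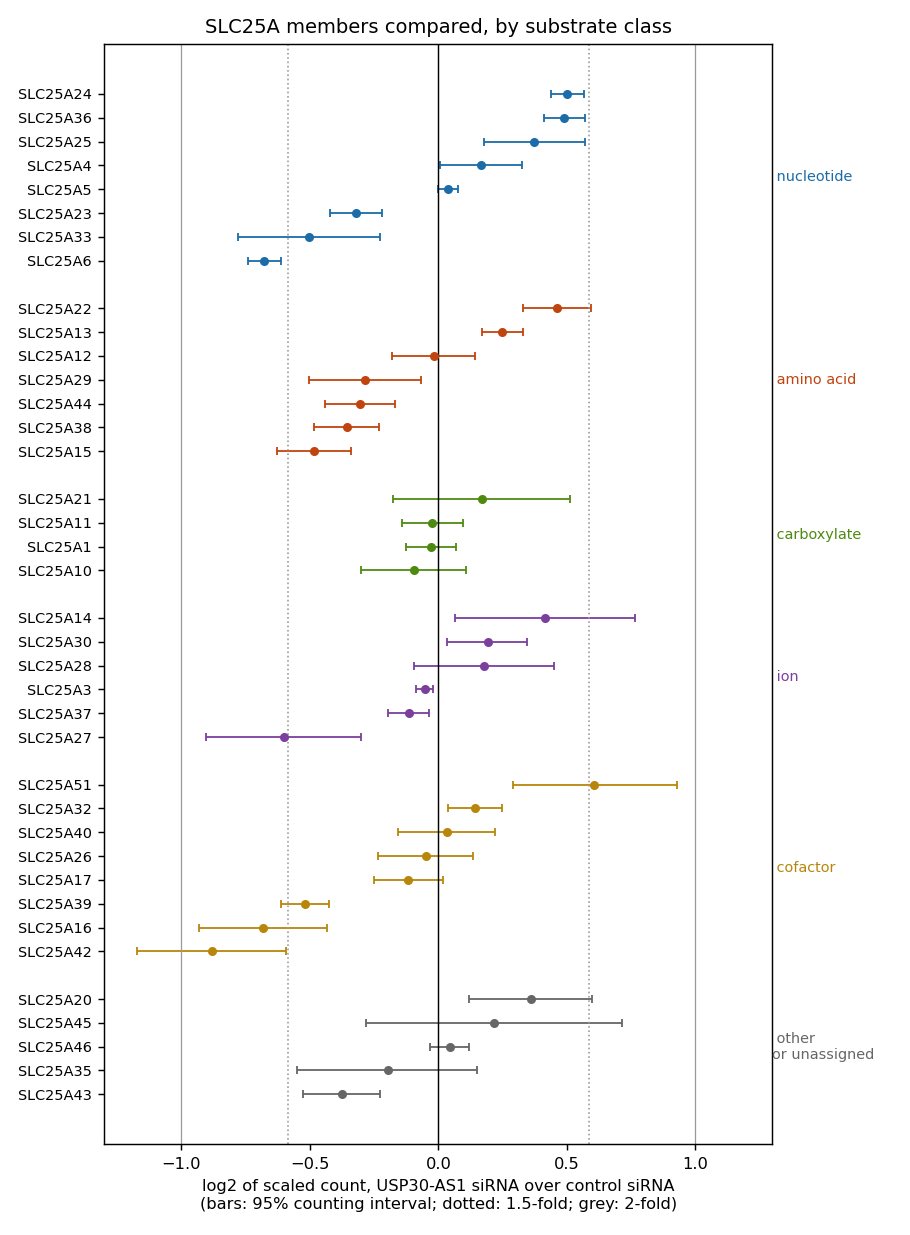
Log2 of the scaled count, USP30-AS1 siRNA over control siRNA, for 38 compared members by substrate class, without added CPM (points) and with 95% counting intervals (bars). Dotted lines mark 1.5-fold and grey lines 2-fold. The carboxylate carriers lie close to 0, and every class holds members on both sides of 0.

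Within a library, the ratio of 2 related carriers needs no scaling between libraries. Of 11 such ratios, chosen by known relatedness after the values were seen, 7 differed between the libraries by more than counting error. For single genes the counting interval lay wholly above 1 for 33.0% of all compared genes and wholly below 1 for 31.5%. The share for ratios of other gene pairs was not computed, so the count of 7 is not a trait of related carriers. The count of SLC25A27 was 0.986 times that of SLC25A14 in the knockdown and 1.99 times in the control library, 2.02-fold lower (1.46 to 2.79). Its size depends on the unit, with a log2 difference of -1.01 in counts and -1.46 in FPKM. SLC25A33 was 0.0623 times SLC25A36 in the knockdown and 0.124 times in the control library, 1.99-fold lower (1.63 to 2.43). SLC25A23 against SLC25A24 gave 0.316 and 0.559, 1.77-fold lower (1.63 to 1.93), and SLC25A6 against SLC25A5 gave 0.293 and 0.481, 1.64-fold lower (1.56 to 1.73). SLC25A12 against SLC25A13 was 1.20-fold lower (1.06 to 1.37), and the mitoferrins SLC25A28 against SLC25A37 1.23-fold higher (1.01 to 1.49). SLC25A40 against SLC25A39 was 1.46-fold higher in counts (1.26 to 1.70), but the log2 difference was 0.20 in FPKM and 0.55 in counts. The intervals of the other 4 ratios held 1, among them SLC25A42 against SLC25A16 with a ratio of ratios of 0.872 (0.667 to 1.14).

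**Figure D4:**
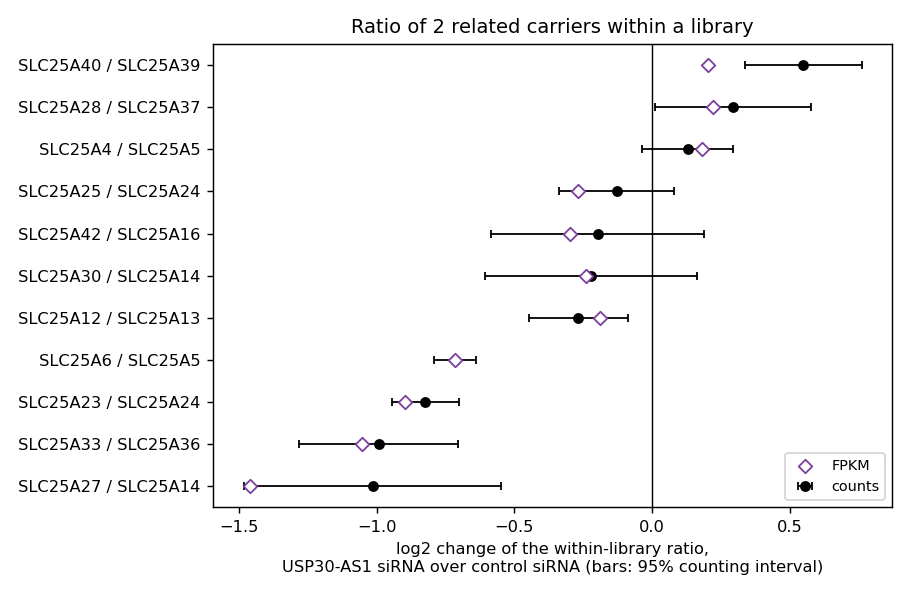
Log2 change, knockdown over control, of the ratio of 2 related carriers within a library, from counts (points with 95% counting intervals) and from FPKM (diamonds). The 4 lowest rows, from SLC25A6 / SLC25A5 down to SLC25A27 / SLC25A14, lie at -0.72 and below in both units. SLC25A27 / SLC25A14 (-1.01 in counts, -1.46 in FPKM) and SLC25A40 / SLC25A39 (0.55 and 0.20) differ most between units.

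Counts and FPKM gave close ratios for most members. For 36 of 39 the log2 ratios differed by less than 0.2. The exceptions were SLC25A27 (FPKM ratio lower by 0.47), SLC25A40 (lower by 0.34) and SLC25A29 (lower by 0.20). SLC25A40, a close relative of SLC25A39, had 422 counts in the knockdown and 508 in the control library, a log2 ratio of 0.03, whereas 7.83 against 9.67 FPKM gave -0.30. The transcript length implied by the deposited counts and FPKM was longer in the knockdown library for SLC25A27 and SLC25A40, by log2 differences of 0.39 and 0.29 relative to the median gene. A difference of at least 0.2 in size was found for 2 of 39 members (5.13%) and 8.07% of 11111 genes with at least 1 FPKM in both libraries. How length entered the FPKM is not stated, and the ratios of SLC25A27 and SLC25A40 depend on the unit.

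**Figure D5:**
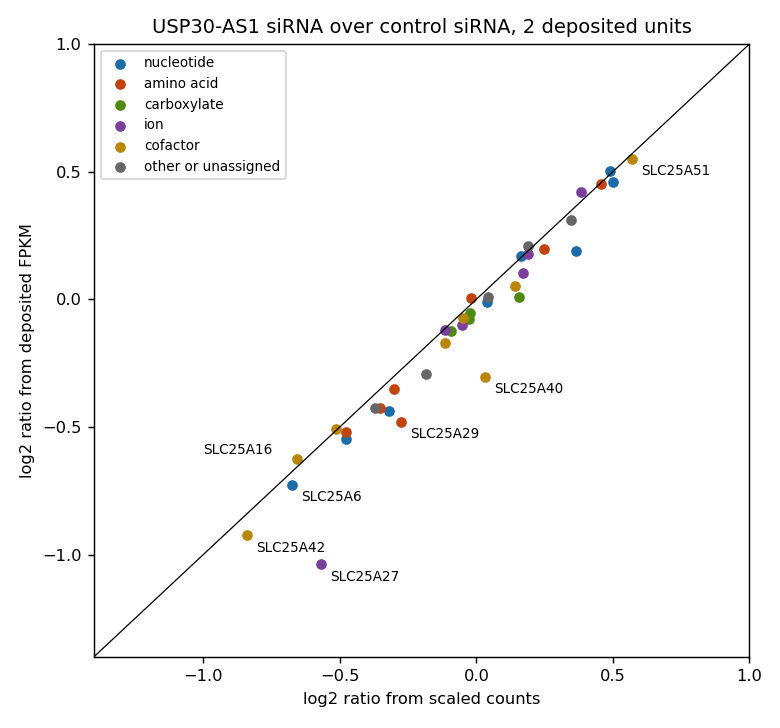
Log2 ratio, knockdown over control, from scaled counts (x) and from deposited FPKM with 0.01 added (y) for 38 compared members, coloured by substrate class, with the line of equal values. SLC25A27 (-0.57, -1.04) and SLC25A40 (0.03, -0.30) lie farthest from the line.

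An earlier look at these data had picked, from the same ratios, a pair of 7-base words in 3′ UTRs that went with lower levels (AACTCCA and ACTCCAA) and a pair that went with higher levels (CCTAAGA and CTAAGAA). Among the carriers, words and directions were mixed. Of the 39 compared members, 4 (10.3%) held a low word, where 16.8% of 11396 compared genes with a 3′ UTR did, and 5 (12.8%) held a high word, where 17.0% did. SLC25A6, SLC25A16, SLC25A42, SLC25A39 and SLC25A27 held neither. Sites in 4 members are shown because their words and ratios go together or apart. Each runs 5′ to 3′ in the transcript (GENCODE 29, GRCh38), with the words in capitals.
SLC25A24, low word, log2 ratio 0.50: ttctgcatttcAACTCCAAtactatccaga
SLC25A36, high word, log2 ratio 0.49: actttaacattCCTAAGAAtataggtattt
SLC25A51, high word, log2 ratio 0.57: gaatagaccttCTAAGAAgaa
SLC25A33, high word, log2 ratio -0.48: aaaagatgataCTAAGAAgaaggcaagta
They lie at chr1:108134304-108134333, chr3:140979510-140979539, chr9:37887604-37887624 and chr1:9584058-9584086 in the order printed. The 4 members with a low word had a median log2 ratio of 0.11, while over all compared genes with a low word it was -0.12. Of these 4 members, 2 lay above 0 and 2 below (SLC25A29 and SLC25A44, which also holds a high word). The 5 members with a high word had a median of 0.16, with 3 above 0 and 2 below. Over all compared genes with a high word the median was 0.10. The 31 members with neither word (79.5% of members, where 71.7% of those compared genes hold neither) had a median of -0.03. They included the 3 members that were 1.5-fold lower, and over all compared genes 495 of the 8175 with neither word were 1.5-fold lower. The part of these words in any ratio was not tested.

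Lists of genes that work with the carriers are given by counts. Beside the counts here and in the next paragraph, 50.4% of all compared genes lay below 0. At 1.5-fold, 6.1% of all compared genes were higher and 7.04% lower. Of the family members that go by other symbols, 3 of 5 were compared and all 3 lay below 0. The uncoupling protein UCP2 had 449 counts in the knockdown and 908 in the control library, 1.64-fold lower (1.47 to 1.84), and the outer membrane protein MTCH1 2931 and 4808, 1.33-fold lower (1.27 to 1.40). Of 10 genes of the TIM22 route, which inserts carriers into the inner membrane, 8 lay below 0 with a median of -0.07 and none reached 1.5-fold with 0.5 CPM added. TIMM10B had a log2 ratio of -0.58 and TIMM9 of -0.24. Of 17 other mitochondrial transporters, 11 lay above 0 (median 0.06), and 2 were 1.5-fold lower: SFXN3 at -0.75 and SFXN2 at -0.63, both relatives of the serine carrier SFXN1.

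Enzymes that use the carried substrates were mixed. Of 4 enzymes of the malate-aspartate shuttle 3 lay above 0, with MDH1 at 0.47 and GOT1 at 0.16. Of 5 enzymes of the carnitine shuttle, CPT1A, which makes the acylcarnitine that SLC25A20 carries, had 1291 counts in the knockdown and 609 in the control library and was 2.61-fold higher (2.37 to 2.88). CPT2, which takes the acyl group back inside, lay at -0.62 and CRAT at -0.85. Of 3 genes of citrate synthesis and cleavage 2 lay above 0, among them ACLY at 0.04, and 1 was 1.5-fold lower. Of 6 compared ornithine and proline enzymes 4 lay below 0, with PYCR1 at -0.83. In glutaminolysis 1 of 2 compared genes lay above 0, GLUD1 at 0.22. Of 4 mitochondrial one-carbon enzymes, SHMT2 lay at 0.48 and MTHFD2 at -0.15. Of 8 genes of haem and iron-sulphur synthesis 4 lay above 0, with CPOX at 0.80 and GLRX5 at -0.70.

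GC content and length are given beside these ratios because they can move with them. Across the 39 compared members the Spearman correlation of the log2 ratio with transcript GC content was -0.22, and across 11510 compared genes it was -0.12. With transcript length it was -0.04 and -0.07. These points share 2 libraries and describe them only.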

How the data were processed

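Per the labels' protocols, RNA was taken up in Trizol, poly(A) RNA was bound to oligo(dT) beads, and libraries were made with a NEBNext Ultra kit. RSEM, StringTie 1.3.1, HISAT2, fastp 0.18.0 and the build GRCh38 appear in the submitters' processing notes, without roles. Annotation release and strand setting are not given in the sources used here. One deposited table holds estimated counts and FPKM for each library, per the file headers. The authors' log2 fold change is the log2 of the FPKM ratio. The authors' deposited p-values rest on 1 library per group and were not used. The Si-179 columns were taken as the knockdown library because the other columns match the control.

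Counts were rounded, divided by library totals and scaled with TMM factors of 0.983 (knockdown) and 1.017 (control) computed with edgeR 4.0.16 (R 4.3.3). Log2 ratios were taken after adding 0.5 CPM, which pulls low genes toward 0, and folds without it. Genes with a mean of at least 50 counts were compared. Intervals are 95% Clopper-Pearson for folds, exact conditional for ratios of ratios and Wilson for shares. They cover counting error only, and PCR copies are not independent. Full values were given for members at least 1.3-fold apart and for the 2 most abundant of each class, and for each list the 2 largest ratios. One compared member and 3 listed genes that this rule names enter the counts and sums but are not reported here. Of the gene identifiers, 20171 of 20289 matched GENCODE 29. The transcript was the principal one with the longest 3′ UTR. Only the log2 ratio and the fold intervals were run on simulated counts with known folds, scaled by library totals without TMM. Those counts held counting error alone, so they could not check the other steps or any spread between replicates. Other steps used Python 3.11.15 with scipy 1.17.1, pandas 2.3.3, numpy 2.4.6 and, for plots, matplotlib 3.10.9. The members and lists were chosen with earlier results of these data known, and the 11 carrier pairs and the 7-base words after values were seen.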

Additional observations from a re-analysis of the deposited data

How the results depend on the processing

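No paired analysis was possible because each group has 1 library. Without TMM the log2 ratio of the family's summed CPM was -0.078 (-0.029 with it), and those of the nucleotide, amino acid and ion classes were -0.031, -0.061 and -0.101 (0.017, -0.012 and -0.052 with it). Several medians moved by over 1.5 times or changed sign in places. Without TMM they were -0.072 (family), 0.052 (nucleotide), -0.075 (carboxylate), 0.011 (ion), -0.096 (cofactor) and -0.005 (other). In FPKM they were -0.074 (family), -0.065 (carboxylate), 0.0 (ion), -0.17 (cofactor) and 0.007 (other). With no floor they were -0.038 (family), -0.04 (nucleotide), -0.147 (amino acid) and -0.184 (other), and with a floor of 200 counts -0.038 (family), -0.053 (ion) and -0.081 (cofactor). With DESeq2 size factors (version 1.42.0) they were -0.014 (family) and -0.017 (carboxylate). The median of all compared genes moved as well, from -0.0036 with TMM to -0.0516 without it, and by under 0.1 under every scaling tried. In FPKM, 1 member was 2-fold lower (SLC25A27, -1.038), where counts gave 0. With 0.1 CPM added in place of 0.5, 2 members were 1.5-fold higher, SLC25A51 now among them, where 0.5 gave 1. With 0.1 CPM added, without TMM or in FPKM, 4 members were 1.5-fold lower, SLC25A27 now among them. The main setting gave 3. With the alternatives run, upper quartile factors and 2 CPM added among them, the other sums stayed within their counting intervals, and the other medians and counts within 1.5 times. Among the 13 members at least 1.3-fold apart, none changed direction. SLC25A42 lay between -0.924 and -0.733 and SLC25A6 between -0.726 and -0.666. Chosen after the data were seen, the cofactor sum without SLC25A39 gave a log2 ratio of -0.0005, the FPKM version of SLC25A40 / SLC25A39 gave 0.202 against 0.549 in counts, and the family median without members holding either 7-base word was -0.028. Members with few counts, such as SLC25A45, have wide intervals.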
